A study of Mus musculus with 35 samples.

Results

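CD8+ resident memory T cells (Trm) of the mouse small intestine were set against CD8+ effector memory T cells (Tem) of the blood, on 6 arrays each of the 35 arrays in the series. The arrays were taken by their titles, and all genes were examined. All animals were healthy wild-type C57BL/6 female mice, 8 to 16 weeks old. Intestine Trm were taken after dissociation of the gut and a 40% and 80% Percoll gradient, by 2 rounds of magnetic selection, the first for CD8b and the last for CD103, which is the integrin chain encoded by Itgae. Blood Tem came from the same animals and were non-naive CD8b-positive cells obtained with a magnetic depletion step. They were also compared with whole intestine that was not sorted (3 arrays), and with lung Trm (6 arrays) and liver Trm (5 arrays), which were selected on CD8b and CD103 as in the gut. The labels do not say which arrays share an animal, so a p-value here covers only the spread among the arrays, which may be technical.

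Resident memory CD8 T cells stay in a tissue and do not return to the blood, whereas effector memory cells recirculate. T cells leave tissues along a gradient of sphingosine 1-phosphate, which they sense with the receptor S1pr1. Cd69 binds S1pr1 and removes it from the cell surface, and the transcription factor Klf2 drives the gene for S1pr1. In the gut, resident cells lie in and under an epithelium whose Paneth cells secrete defensins, and CD103 binds E-cadherin on the epithelial cells.

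Each array measured 39429 probes by fluorescence intensity, of which 21.8% to 35.5% were well above background on the intestine Trm arrays and 25.6% to 35.5% on the blood Tem arrays. Values below are log2 intensities scaled to a common upper quartile. Where 3 values are given for a group of 6 arrays, they are its lowest, median and highest array, and a difference is intestine Trm minus blood Tem on the log2 scale with its standard error. Intestine Trm and blood Tem arrays with the same number lay on the same slide, whereas whole intestine lay on other slides scanned on another day, so that slide and tissue preparation cannot be told apart there. Gut dissociation and CD103 selection were applied to intestine Trm and not to blood Tem, and their effects cannot be told apart from those of the cell population. Of the 12 arrays, 3 stood apart. Intestine Trm 2 held the most signal of stromal markers, and blood Tem 3 lay farthest out on the first principal component. Blood Tem 2 differed from the other blood arrays in many T cell genes. Counts that moved by over 1.5 times without intestine Trm 2 and blood Tem 3 are given both ways below.

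In all, 699 genes were higher in intestine Trm than in blood Tem (8.11% of 8622 genes tested) and 830 were lower (9.63%), at an adjusted p under 0.05 in limma with the Benjamini-Hochberg adjustment. The median difference over all genes tested was -0.03. Higher genes made up 45.7% of the calls, but 30.5% (599 higher, 1368 lower) when arrays were scaled over all probes and 33.6% (552 higher, 1091 lower) with normexp background correction. On all 6 slides the intestine Trm array was above the blood Tem array of the slide for 476 of the 699 higher genes. It was below on all 6 for 576 of the 830 lower genes. The genes were called on these same arrays, so the 2 counts describe the calls and are no support for them. The 6 intestine arrays all lay above the 6 blood arrays for 280 genes (3.25%) and all below for 406 genes (4.71%). Without intestine Trm 2 and blood Tem 3 the counts were 455 higher and 649 lower. Probes not above background on any of the 12 arrays read 0.70 higher in intestine Trm (median of 21086 probes).

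The whole intestine arrays divided the 699 higher genes into 3 classes. Intestine Trm exceeded whole intestine for 203 genes (29.0%), which were called higher than in the tissue. Whole intestine was at least as bright as intestine Trm, and above background on at least 2 of its 3 arrays, for 314 genes (44.9%). The remaining 182 genes (26.0%) were above whole intestine in their mean without passing the test, or were dim there. Among the 830 lower genes, 141 (17.0%) still exceeded whole intestine and 426 (51.3%) were at least as bright in it. Of the genes with no call against blood Tem, 12.1% exceeded whole intestine and 44.6% were at least as bright in it. Across the 10636 genes tested on all arrays, 11.7% were called higher in intestine Trm than in whole intestine and 20.1% lower. Of the 203 genes above whole intestine, 63 were not above background on any whole intestine array and 76 were above background on all 3. A bulk sample cannot separate fewer cells of a type from less RNA per cell, here or in any result below.

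**Figure D1:**
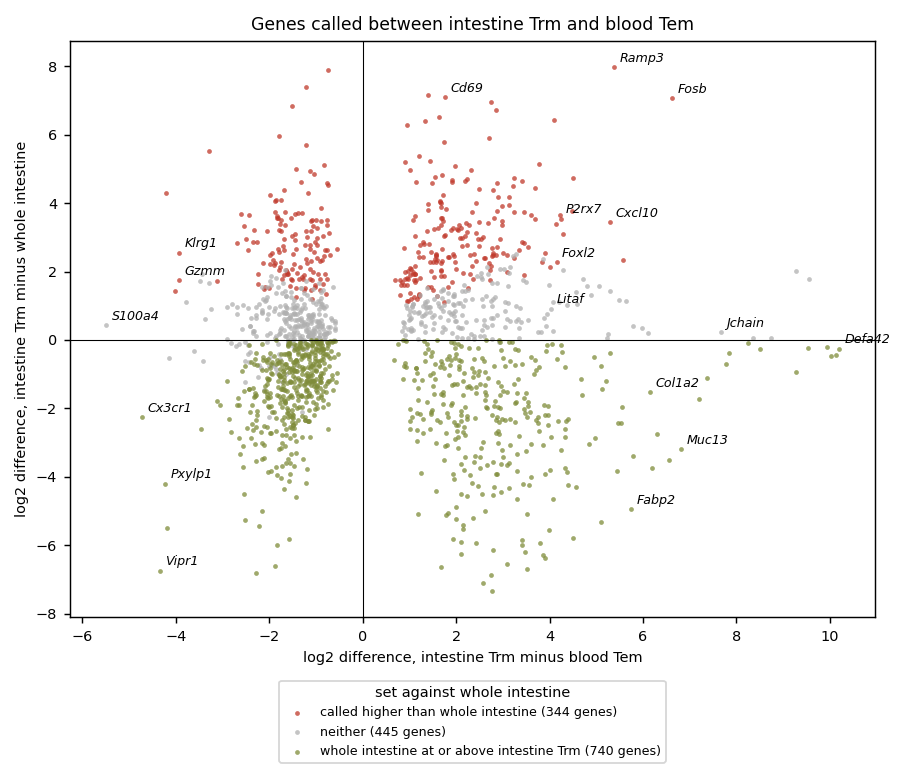
Each point is one of the 1529 genes called between intestine Trm and blood Tem; the x axis is intestine Trm minus blood Tem and the y axis intestine Trm minus whole intestine, both log2 differences of group means (n = 6, 6 and 3 arrays). Red marks genes called higher in intestine Trm than in whole intestine, green those at least as bright in whole intestine and grey the rest; the defensin Defa42 lies at the far right near 0 on the y axis, whereas Fosb and Ramp3 lie far above 0.

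The 10 largest differences among genes above background on every intestine Trm array were those of 9 alpha-defensin genes and Itln1, all products of gut epithelium. Defa42, an alpha-defensin that Paneth cells secrete against bacteria, read 17.05, 18.19 and 18.95 in intestine Trm, and 6.17, 8.10 and 8.57 in blood Tem, where no array was above background. It was at least 318-fold higher in intestine Trm (adjusted p = 7.0e-08), and its mean was 18.06 in intestine Trm and 18.32 in whole intestine on the scale of all arrays. Alpha-defensin genes are near-identical copies, and their probes may not tell them apart, so they are described as 1 signal. Itln1, the lectin intelectin of Paneth and goblet cells, read 16.51, 17.74 and 18.43 in intestine Trm, against 5.69, 7.86 and 8.41 in blood Tem, and was at least 232-fold higher (adjusted p = 1.1e-07). Both genes separated the groups without overlap.

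Of 14 tested markers of Paneth, goblet and enteroendocrine cells, 13 were higher in intestine Trm, with a median difference of 5.41, and 11 of them were above background on no blood Tem array. Markers unseen in blood passed the filter on dim probes only through a Trm group. They could hardly come out lower, in this and the following marker lists. Across all genes tested, 8.11% were higher and 9.63% lower, and these shares also apply to the following marker lists. Of the other 14 of the 28 markers listed, 9 did not pass the filter on dim probes, Muc2 and Chga among them, and 5 had no matched probe. Their summed intensity on the scale of all arrays ran between 171200 and 1258000 in intestine Trm, between 3427 and 15810 in blood Tem and between 1338000 and 3233000 in whole intestine. Lyz1, the Paneth cell lysozyme, read 14.93, 17.10 and 17.94 in intestine Trm, against 8.03, 8.38 and 10.47 in blood Tem (7.85 ± 0.64, adjusted p = 4.0e-08). Reg3g, an antibacterial lectin, was at least 33.9-fold higher in intestine Trm (adjusted p = 4.0e-08).

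Enterocyte markers followed at a lower level, with 8 of 14 tested members higher and 1 lower. Of these 14 members, 6 were above background on no blood Tem array. The 1 lower call ended without intestine Trm 2 and blood Tem 3, and also without intestine Trm 1, 4 or 6 or blood Tem 1, 3, 4 or 6 alone. Their sum was 62110 to 330400 in intestine Trm, 10970 to 30590 in blood Tem and 1611000 to 3428000 in whole intestine, and defining members such as Epcam, Lct, Sis and Apoa4 did not pass the filter. Muc13, a mucin of the epithelial surface, read 12.29, 14.52 and 16.21 in intestine Trm, against 5.76, 7.66 and 8.15 in blood Tem (at least 22.8-fold higher, adjusted p = 4.5e-08), and it was lower than in whole intestine (log2 difference -3.20, adjusted p = 2.6e-05). Fabp2, the fatty acid binding protein of enterocytes, read 11.48, 13.08 and 15.53 in intestine Trm, against 5.69, 7.69 and 8.20 in blood Tem (at least 11-fold higher, adjusted p = 1.4e-04). Fabp2 and Fabp4 were the only called members of the fatty acid uptake and oxidation list (2 of 17 tested, median difference 0.22). The share of all genes higher was 8.11%. Both Fabp2 and Fabp4 were at least as bright in whole intestine. Fabp4 was not called without intestine Trm 2 and blood Tem 3 (2.76, adjusted p = 0.0860).

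Stromal markers rose in 10 of 12 tested members (median difference 3.74), all of them at least as bright in whole intestine. Of the 12 tested, 8 were above background on no blood Tem array and could hardly fall. A further 6 listed members did not pass the filter. Col1a2, a chain of type I collagen, read 11.63, 13.67 and 17.09 in intestine Trm, against 5.89, 7.88 and 8.35 in blood Tem (at least 16.6-fold higher, adjusted p = 7.3e-06). The stromal sum spanned 20720 to 997800 in intestine Trm, against 5390 to 15220 in blood Tem and 375600 to 836000 in whole intestine, and its highest intestine Trm value came from replicate 2. Without intestine Trm 2 and blood Tem 3, 6 stromal members were called. Endothelial markers rose in 4 of 9 tested members, in 2 without those arrays, and in 2 when intestine Trm 2, 3 or 4 or blood Tem 1, 3 or 5 alone was left out. Of these 9 members, 4 were above background on no blood Tem array.

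Plasma cell genes formed a further group. Jchain, the joining chain of secreted IgA and IgM, read 13.26, 16.69 and 18.20 in intestine Trm, against 7.63, 8.18 and 9.67 in blood Tem (7.66 ± 0.68, adjusted p = 7.0e-08), and the groups did not overlap. Xbp1, a transcription factor of secretory cells, was higher by 2.59 ± 0.40 (adjusted p = 1.1e-04). Of 10 tested B and plasma cell markers, 7 were higher and 0 lower (4 and 1 without intestine Trm 2 and blood Tem 3, and 4 higher without intestine Trm 2 or 6 or blood Tem 3 alone), while Cd79a did not pass the filter and Ms4a1 was not called. Their sum was 229500 to 879400 in intestine Trm, 52190 to 109300 in blood Tem and 245100 to 780100 in whole intestine, so intestine Trm and whole intestine overlapped. Monocyte and macrophage markers rose in 3 of 10 tested members and in 0 without intestine Trm 2 and blood Tem 3 or without intestine Trm 2 or 4 alone, and in 1 without intestine Trm 3. Neutrophil, eosinophil and mast cell markers were higher in 2 of 10 tested members, in 0 without intestine Trm 1 or 6, and in 1 without intestine Trm 2 or 5, without any 1 of blood Tem 1 to 5, or without intestine Trm 2 and blood Tem 3. Erythroid and platelet markers had 0 of 5 tested members called, and 1 was lower without intestine Trm 2 and blood Tem 3, or without intestine Trm 2 or 3 or blood Tem 6 alone. A haemoglobin gene outside that list, Hba-a2, read 7.57, 10.22 and 15.94 in intestine Trm, against 13.87, 15.57 and 17.21 in blood Tem, with overlap, and was among the 10 largest falls (-4.19, adjusted p = 0.0184). Its near-identical copy Hba-a1 was not called (-2.47 ± 0.90, adjusted p = 0.0589), and their probes may not tell the copies apart. Hba-a2 was not called on the 12 arrays alone (adjusted p = 0.0516). Enteric neuron and glia markers had 0 of 2 tested members called. The part of these cells in the other results was not tested.

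**Figure D2:**
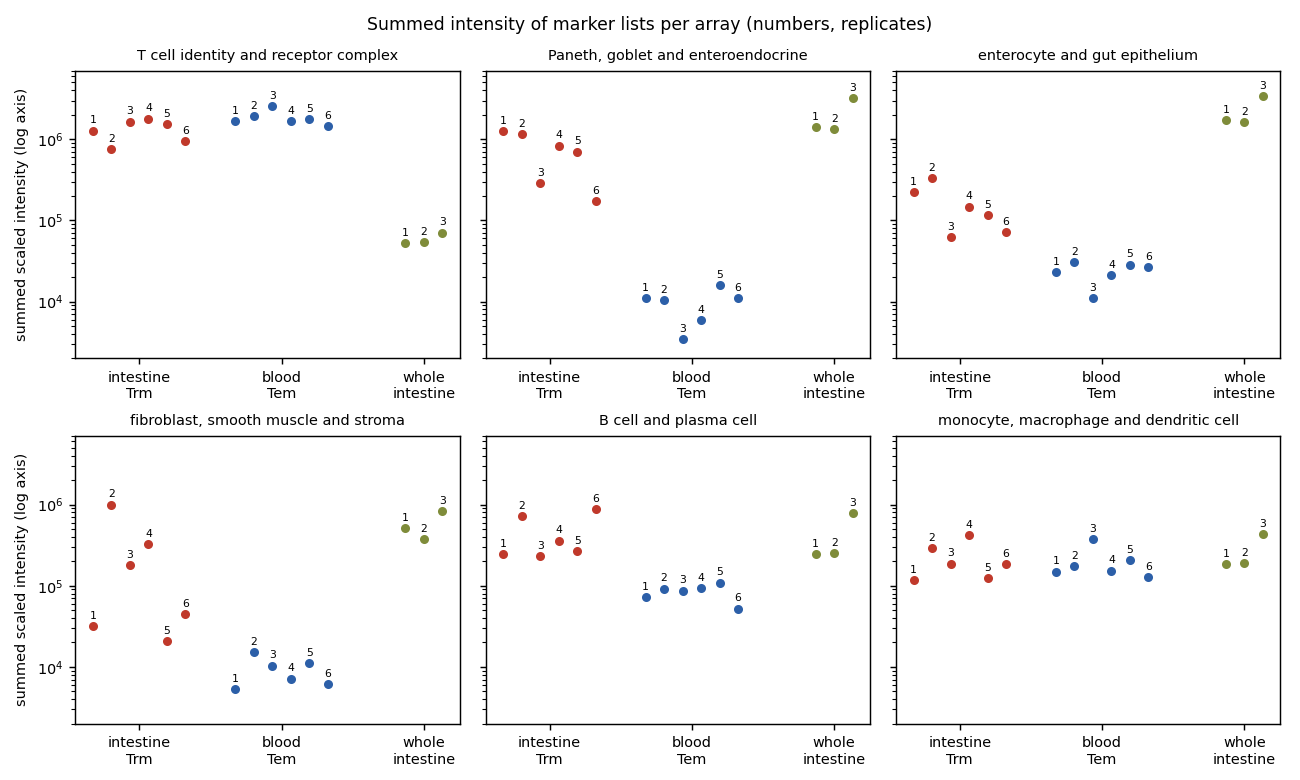
Summed scaled intensity (log axis) of 6 marker lists on each intestine Trm, blood Tem and whole intestine array, with replicate numbers beside the points. T cell identity genes lie between 762500 and 1794000 in intestine Trm, against 52590 to 70770 in whole intestine, while Paneth and stromal sums of intestine Trm lie above every blood Tem array.

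The intestine Trm replicates also differed in how much gut signal they held. Array 2 was the highest of the 6 for 200 of the 314 genes at least as bright in whole intestine (63.7%), for 81 of the 182 remaining genes (44.5%) and for 38 of the 203 genes above whole intestine (18.7%), against 30.5% of all genes tested. It was the lowest of the 6 for 64 of the 203 genes above whole intestine (31.5%) and for 16 of the 314 (5.1%), against 16.1% of all genes. T cell identity genes were lowest on array 2 in 14 of 21 members, residency-associated genes in 16 of 33 and cytotoxic genes in 13 of 19. Stromal genes were highest there in 11 of 12 members. Paneth, goblet and enteroendocrine genes were highest on array 1 in 7 members and on array 2 in 7, and lowest on array 6 in 10 of 14. These shares describe the 6 arrays and carry no test.

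This profile set some genes of the class above whole intestine apart from T cell genes. Foxl2, a transcription factor known from the ovary, read 18.12, 18.12, 14.49, 17.11, 17.11 and 14.67 on intestine Trm arrays 1 to 6. Fkbp1a, the binding protein of the drug FK506, read 17.71, 18.21, 14.93, 17.59, 17.29 and 15.15 on the same arrays, and Defa21 read 18.49, 18.32, 15.90, 17.63, 17.53 and 14.67. All 3 were thus low on arrays 3 and 6. Another probe of Foxl2 differed by 0.45 between intestine Trm and blood Tem, and one of Fkbp1a by -0.46, against 4.15 ± 0.49 and 3.90 ± 0.44 for the probes with the highest mean. Ahr, by contrast, read 13.56, 11.96, 13.48, 13.59, 14.19 and 12.50, and was lowest on array 2.

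**Figure D3:**
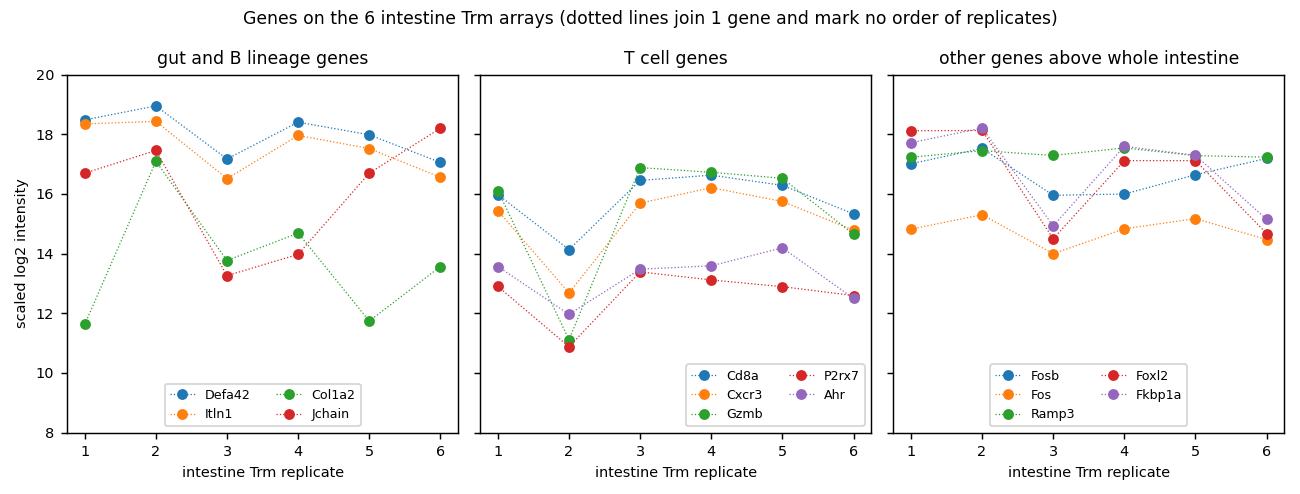
Scaled log2 intensity of named genes on intestine Trm arrays 1 to 6; dotted lines join the points of 1 gene. Defa42 and Itln1 are high on arrays 1 and 2, Cd8a, Cxcr3, Gzmb, P2rx7 and Ahr dip on array 2, Foxl2 and Fkbp1a are low on arrays 3 and 6, and Ramp3 keeps between 17.23 and 17.54.

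T cell identity genes were well above the tissue, and 17 of 21 tested were not called against blood Tem. Cd3e, a chain of the T cell receptor complex, read 15.93, 16.40 and 17.11 in intestine Trm, against 16.65, 16.76 and 16.87 in blood Tem (-0.32 ± 0.22, adjusted p = 0.334), and was 4.39 above whole intestine (adjusted p = 7.1e-06). Cd8a, the alpha chain of CD8, read 14.13, 16.13 and 16.63 in intestine Trm, against 15.80, 16.18 and 16.66 in blood Tem (-0.39 ± 0.36, adjusted p = 0.466), with its lowest value on array 2. Cd8b1, the beta chain on which both populations were selected, read 13.60, 14.74 and 15.25 in intestine Trm, against 15.67, 15.74 and 16.13 in blood Tem (-1.21 ± 0.33, adjusted p = 0.0132). The arrays of Cd8b1 did not overlap, but the call ended without intestine Trm 2 and blood Tem 3 (-0.99, adjusted p = 0.0557). Of 21 tested members of this list, 0 rose and 4 fell (Cd8b1, Cd2, Ptprcap and Themis), against 8.11% and 9.63% of all genes. Without those arrays, 0 were called lower. Without intestine Trm 2 alone, 2 were lower and 2 higher, and 2 were lower without intestine Trm 6 or without blood Tem 2. The median difference of the list was -0.39. Itgae and Zfp683 had no matched probe and were not analysed here, and Itga1 was above background on none of the 12 arrays.

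Residency-associated genes rose in 22 of 33 tested members, against 8.11% of all genes, with a median difference of 1.72, and 0 fell. The members of this list, like those of the others, were chosen with earlier results of these data known. The share is therefore not independent support. Of the 22, 14 exceeded whole intestine and 2 were at least as bright in it. Without intestine Trm 2 and blood Tem 3, 16 were called. Among the transcription factors, Ahr, the receptor for dietary and microbial aryl hydrocarbons, read 11.96, 13.52 and 14.19 in intestine Trm, against 7.66, 8.98 and 11.32 in blood Tem. The arrays did not overlap, and Ahr was higher by 3.84 ± 0.59 (adjusted p = 1.0e-04) and 2.27 above whole intestine (adjusted p = 0.0126). Of 9 tested members of the aryl hydrocarbon receptor pathway, Ahr was the 1 called, beside 8.11% of all genes higher. Without intestine Trm 6 or blood Tem 1 or 2, 2 were called. The known Ahr target Cyp1a1 did not pass the filter.

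Bhlhe40, a transcription factor of the basic helix-loop-helix family, read 13.19, 14.36 and 15.16 in intestine Trm, against 8.83, 10.81 and 14.05 in blood Tem (3.46 ± 0.64, adjusted p = 6.8e-04). Its groups overlapped through 1 blood array. Litaf, an endosomal membrane protein induced by bacterial lipopolysaccharide, read 14.49, 15.80 and 16.03 in intestine Trm, against 10.40, 11.39 and 13.73 in blood Tem (4.04 ± 0.46, adjusted p = 2.2e-06), and its groups did not overlap. It was not called against whole intestine (0.91, adjusted p = 0.332). Prdm1, which encodes Blimp-1, reached 1.99 ± 0.69 (adjusted p = 0.0479), and its call ended when any array other than intestine Trm 1 or blood Tem 2 was left out (highest adjusted p 0.122).

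P2rx7, a channel gated by extracellular ATP, read 10.87, 12.89 and 13.38 in intestine Trm, against 7.39, 8.24 and 9.30 in blood Tem, with no overlap (4.24 ± 0.66, adjusted p = 1.3e-04). Purinergic genes and ectoenzymes rose in 4 of 9 tested members, against 8.11% of all genes, with a median difference of 1.71. Adora2a, an adenosine receptor, read 11.95, 13.87 and 14.57 in intestine Trm, against 11.07, 11.91 and 12.40 in blood Tem, with overlap (1.73 ± 0.47, adjusted p = 0.0126). Cd38, an ectoenzyme that consumes NAD, was higher by 2.57 ± 0.57 (adjusted p = 0.00317). P2rx4, a second ATP-gated channel, read 12.95, 13.37 and 14.08 in intestine Trm, against 7.56, 11.58 and 12.27 in blood Tem (2.51 ± 0.56, adjusted p = 0.00352), but whole intestine was at least as bright. Adora2a exceeded whole intestine by 5.80 (adjusted p = 4.0e-09), while Cd38 was not called against it.

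Cd69, the antagonist of S1pr1, read 13.21, 14.37 and 15.21 in intestine Trm, against 11.49, 12.51 and 13.25 in blood Tem, with overlap at the edge (adjusted p = 0.00442). It was 7.10 above whole intestine (adjusted p = 5.4e-12). Ctla4, an inhibitory receptor, read 13.02, 14.10 and 14.71 in intestine Trm, against 9.89, 11.23 and 13.03 in blood Tem (2.78 ± 0.48, adjusted p = 3.5e-04), and its groups overlapped narrowly. Cd101, an inhibitory surface protein, was higher by 1.12 ± 0.34 (adjusted p = 0.0271), a call that ended without intestine Trm 3, 4 or 6 or blood Tem 3 or 5 (highest adjusted p 0.0672). These were the 2 higher members among 15 checkpoint and costimulatory receptors tested, and 1 was lower. Both counts lay near the shares of all genes (8.11% higher and 9.63% lower). Without blood Tem 2, 4 were higher. The lower count was 0 without intestine Trm 1 or 2 or blood Tem 1, 2 or 6, and 2 without intestine Trm 5 or blood Tem 5.

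**Figure D4:**
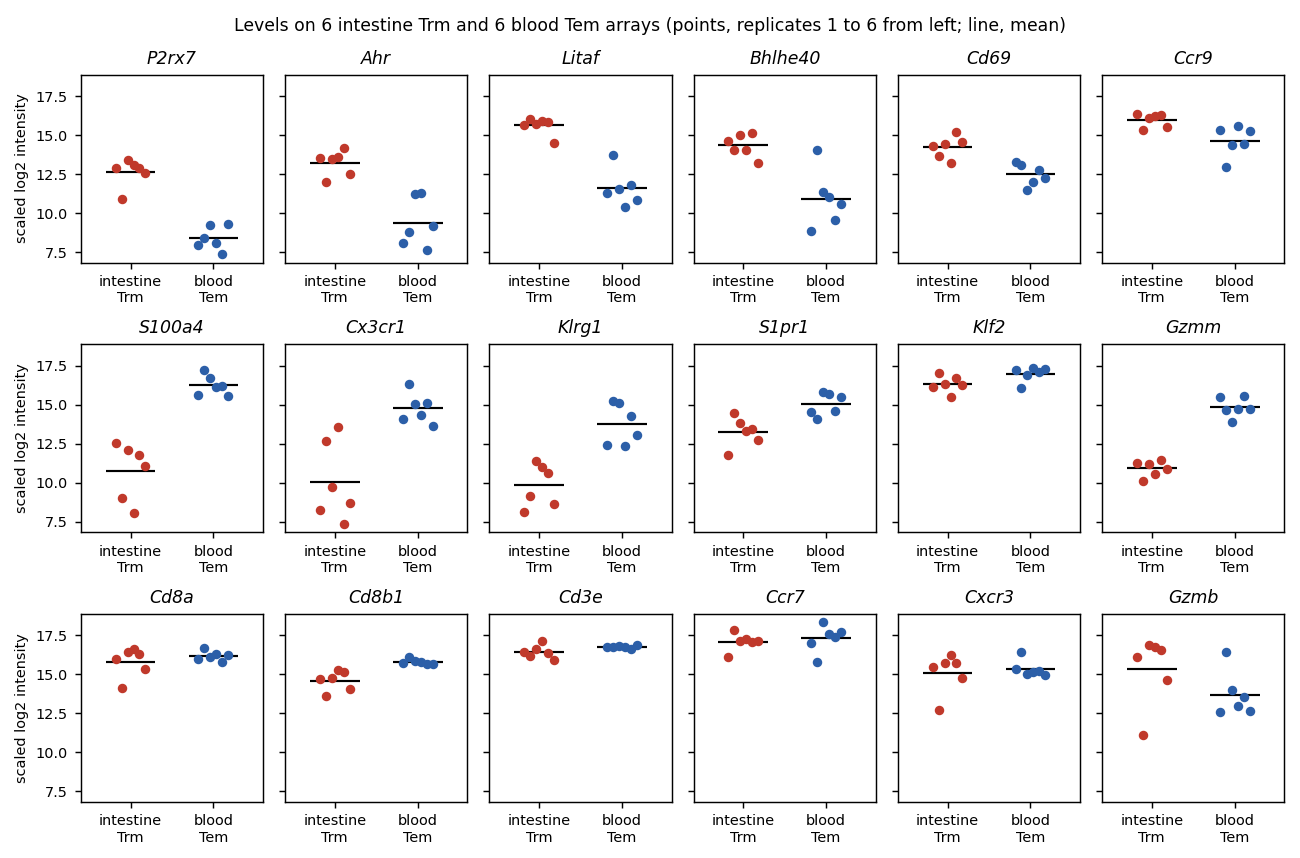
Scaled log2 intensity of 18 genes on the 6 intestine Trm arrays (left) and the 6 blood Tem arrays (right); points are arrays and lines group means. P2rx7, Ahr and Litaf lie wholly above blood, S100a4, Cx3cr1, Klrg1 and Gzmm wholly below it, and Cd3e, Cd8a, Ccr7, Cxcr3 and Gzmb overlap.

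Immediate early genes are those that cells transcribe within minutes of a stimulus. A list of immediate early and stress genes rose in 19 of 34 tested members, against 8.11% of all genes. The median difference of the list was 1.26, and 0 fell. Of the 34, 4 were above background on no blood Tem array and could hardly fall. Some genes belong both to this list and to the residency-associated list. Of the 19, 15 exceeded whole intestine and 2 were at least as bright there. Fosb and Fos encode partners of Jun in the transcription factor AP-1, and Atf3 a stress-induced factor of the same wider family. Their promoters are shown because these 3 rose and exceeded whole intestine. RefSeq sequences of build GRCm38.p6 were used, in lower case, with the letters TGACG, the core of the cyclic AMP response element, in capitals on either strand (CGTCA on the reverse strand). The windows run from 250 bases before to 50 after the gene's start for Fos and Atf3, and from 177 before to 123 after the start in the RefSeq gene table for Fosb. In the order Fosb, Fos and Atf3 they are chr7:19309996-19310295 (minus strand), chr12:85473640-85473939 (plus strand) and chr1:191183284-191183583 (minus strand).
Fosb: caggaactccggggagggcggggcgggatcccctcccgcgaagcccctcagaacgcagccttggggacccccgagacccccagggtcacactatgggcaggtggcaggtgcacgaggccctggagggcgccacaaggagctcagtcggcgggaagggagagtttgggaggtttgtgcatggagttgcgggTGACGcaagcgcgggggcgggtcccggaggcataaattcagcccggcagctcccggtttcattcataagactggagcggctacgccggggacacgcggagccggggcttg
Fos: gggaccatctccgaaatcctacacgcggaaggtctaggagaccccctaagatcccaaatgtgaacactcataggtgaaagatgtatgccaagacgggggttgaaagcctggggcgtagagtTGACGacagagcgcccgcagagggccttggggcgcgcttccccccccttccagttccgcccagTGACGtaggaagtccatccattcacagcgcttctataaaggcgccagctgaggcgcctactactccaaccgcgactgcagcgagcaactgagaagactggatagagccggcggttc
Atf3: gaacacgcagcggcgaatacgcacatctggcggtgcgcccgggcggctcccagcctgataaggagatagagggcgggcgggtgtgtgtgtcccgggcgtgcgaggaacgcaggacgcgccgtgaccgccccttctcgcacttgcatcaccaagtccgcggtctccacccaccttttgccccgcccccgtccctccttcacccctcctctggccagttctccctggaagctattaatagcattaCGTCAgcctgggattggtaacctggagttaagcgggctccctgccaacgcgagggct

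These letters occur 1 time in the Fosb window, 2 times in Fos and 1 time in Atf3. They occur in 10 of the 18 higher immediate early and stress genes that matched the promoter table. Among all windows of the same length, 6837 of 32851 (20.81%) hold them, or 23.05% of 27025 genes. The CArG box bound by serum response factor, searched on both strands, was found in 1 of the 18 and in 1.81% of genes. Only these windows were searched, so a box farther from the gene's start would be missed. A match describes letters and not a bound site.

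Fosb read 15.95, 16.83 and 17.52 in intestine Trm, against 8.69, 9.64 and 13.35 in blood Tem, with no overlap (6.62 ± 0.67, adjusted p = 4.8e-07). Fos read 13.99, 14.82 and 15.30 in intestine Trm, against 8.43, 11.01 and 11.79 in blood Tem, again with no overlap (4.00 ± 0.40, adjusted p = 4.2e-07). Atf3 read 10.81, 12.10 and 14.04 in intestine Trm, against 6.25, 8.22 and 8.68 in blood Tem, where no array was above background (at least 5.47-fold higher, adjusted p = 2.2e-04). All 3 exceeded whole intestine, Fosb by 7.07 (adjusted p = 1.2e-08). Klf4, a factor also abundant in epithelium, was at least 6.4-fold higher than in blood Tem (adjusted p = 4.3e-06) but lower than in whole intestine (log2 difference -2.60, adjusted p = 0.00167).

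Unlike T cell identity genes, the immediate early and stress genes were highest on intestine Trm array 2 in 19 of 34 members and lowest on array 3 in 14. Against lung Trm, which was also dissociated from tissue, 2 members were higher and 0 lower, and against liver Trm 5 were higher and 0 lower. The shares of all genes higher in intestine Trm were 5.24% against lung Trm and 8.87% against liver Trm. Fosb was not called against lung Trm (2.03 ± 0.67, adjusted p = 0.0582), and Fos differed from lung Trm by -0.05 ± 0.40 (adjusted p = 0.949). Without intestine Trm 2 and blood Tem 3, 16 members were called higher than in blood Tem. The part of tissue dissociation in this result was not tested.

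The other large differences of the class above whole intestine belonged to genes of varied function. Ramp3, a partner protein of the calcitonin receptor-like receptor, read 17.23, 17.29 and 17.54 in intestine Trm, against 8.51, 12.21 and 14.76 in blood Tem, with no overlap (5.38 ± 0.93, adjusted p = 3.8e-04). It had the narrowest range in intestine Trm among the genes plotted by array. Cxcl10, a chemokine induced by interferon, read 12.53, 14.34 and 15.49 in intestine Trm, against 6.77, 9.25 and 9.79 in blood Tem (at least 20.9-fold higher, adjusted p = 5.2e-07). Dennd4a, an activator of the vesicle protein Rab10, read 11.62, 13.96 and 14.68 in intestine Trm, against 8.04, 9.06 and 11.32 in blood Tem, with no overlap (4.48 ± 0.68, adjusted p = 8.7e-05). Cables1, an adaptor of cyclin-dependent kinases, was higher by 5.58 ± 0.59 (adjusted p = 8.9e-07). Lilrb4a, an inhibitory immunoglobulin-like receptor, was higher by 4.10 ± 0.85 (adjusted p = 0.00185), and its groups overlapped.

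Cytotoxic and secreted genes had 3 higher and 1 lower of 19 tested, against 8.11% and 9.63% of all genes. The median difference of this list was 0.21. The chemokine Xcl1 read 11.97, 13.64 and 14.37 in intestine Trm, against 8.89, 10.76 and 11.61 in blood Tem, with no overlap (2.79 ± 0.45, adjusted p = 1.7e-04). Ccl4, a chemokine secreted by activated T cells, read 14.82, 16.55 and 16.71 in intestine Trm, against 12.27, 12.89 and 16.18 in blood Tem, where array 2 was the highest and overlapped with intestine Trm (2.70 ± 0.50, adjusted p = 7.4e-04). Srgn, the proteoglycan of cytotoxic granules, was higher by 0.90 ± 0.23 (adjusted p = 0.0098) and lost its call when scaled over all probes. Gzmm, which encodes granzyme M, read 10.11, 11.04 and 11.44 in intestine Trm, against 13.91, 14.71 and 15.56 in blood Tem, and fell without overlap (-3.93 ± 0.39, adjusted p = 3.1e-07).

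Granzyme B depended on single arrays. Gzmb read 11.11, 16.32 and 16.88 in intestine Trm, with its lowest value on array 2, against 12.60, 13.27 and 16.42 in blood Tem, with its highest value on array 2. The difference was 1.64 ± 0.91 (adjusted p = 0.234), and 2.48 without intestine Trm 2, where it was called (adjusted p = 0.0333). Gzma, granzyme A, differed by 0.21 ± 0.57 (adjusted p = 0.819), Ifng, interferon gamma, by 0.86 ± 0.91 (adjusted p = 0.523) and Prf1, perforin, by -1.04 ± 0.39 (adjusted p = 0.0662). Prf1 was called lower without intestine Trm 3 (-1.21, adjusted p = 0.0408) or intestine Trm 5 (-1.20, adjusted p = 0.0413).

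Of 26 tested circulation-associated genes, 17 fell, against 9.63% of all genes, and 0 rose (median difference -1.44; 16 fell without intestine Trm 2 and blood Tem 3). S100a4, a calcium-binding protein of motile cells, read 8.08, 11.42 and 12.54 in intestine Trm, against 15.55, 16.17 and 17.24 in blood Tem (-5.49 ± 0.60, adjusted p = 1.3e-06). Cx3cr1, the receptor of fractalkine, read 7.37, 9.20 and 13.57 in intestine Trm, against 13.61, 14.69 and 16.35 in blood Tem (-4.72 ± 0.85, adjusted p = 5.3e-04). Klrg1, an inhibitory lectin receptor of effector cells, read 8.14, 9.86 and 11.38 in intestine Trm, against 12.38, 13.67 and 15.23 in blood Tem (-3.92 ± 0.58, adjusted p = 6.5e-05). None of these 3 genes overlapped between the groups.

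The receptors of sphingosine 1-phosphate fell with them. S1pr1 read 11.76, 13.38 and 14.47 in intestine Trm, against 14.09, 15.07 and 15.83 in blood Tem, with overlap, and fell on 5 of 6 slides (adjusted p = 0.00339). S1pr5, a second receptor, read 7.18, 8.01 and 8.93 in intestine Trm, where no array was above background, against 8.70, 11.25 and 11.98 in blood Tem (at least 1.53-fold lower, adjusted p = 1.6e-04). S1pr4 was lower by -0.91 ± 0.27 (adjusted p = 0.0225), a call that ended without intestine Trm 1 or 4 or blood Tem 1 or 6 (highest adjusted p 0.0598). Sgpp1, a phosphatase of sphingosine 1-phosphate, fell without overlap (-1.24 ± 0.25, adjusted p = 0.00157). These are the 4 lower members of 11 tested in the pathway, and 2 were higher (Cd69 and Gna13), against 9.63% and 8.11% of all genes. The call of Gna13 ended when any array other than intestine Trm 6 or blood Tem 4 was left out (highest adjusted p 0.106), and without intestine Trm 2 and blood Tem 3, so that 1 member was then higher.

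Klf2 differed by -0.67 ± 0.26 (adjusted p = 0.076) and was not called, although it passed without blood Tem 2 (-0.85, adjusted p = 0.0188) or intestine Trm 2 (-0.81, adjusted p = 0.0382). It was 5.08 above whole intestine (adjusted p = 2.3e-06). Ccr7, the lymph node homing receptor, read 16.10, 17.12 and 17.82 in intestine Trm, against 15.78, 17.48 and 18.34 in blood Tem (-0.22 ± 0.35, adjusted p = 0.674). Ccr7 marks naive and central memory cells, and it was above background on all 6 arrays of intestine Trm and all 6 of blood Tem.

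Of 27 tested genes of naive and central memory cells, 11 fell and 1 rose, against 9.63% and 8.11% of all genes (median difference -0.83). With the slide number as a block on the 12 arrays 6 fell. Dapl1, known as a marker of naive CD8 T cells, read 8.35, 12.22 and 13.71 in intestine Trm, against 13.33, 16.46 and 16.78 in blood Tem (-4.22 ± 0.73, adjusted p = 3.6e-04). Il6ra, the receptor of interleukin 6, read 10.81, 11.72 and 13.73 in intestine Trm, against 12.57, 14.77 and 15.72 in blood Tem (-2.69 ± 0.56, adjusted p = 0.00182). Both overlapped between the groups. Tcf7, the transcription factor TCF-1, was lower by -1.22 ± 0.38 (adjusted p = 0.0269) and Eomes, a T-box factor of memory cells, by -2.26 ± 0.74 (adjusted p = 0.0368). The call of Tcf7 ended without intestine Trm 2 or 6 or blood Tem 1, 3, 4 or 6 (highest adjusted p 0.0683), and that of Eomes without intestine Trm 2, 3, 4 or 6 or blood Tem 1 or 2 (highest adjusted p 0.0935). Bach2, a repressor of effector genes, was lower by -2.80 ± 0.49 (adjusted p = 4.6e-04), but its other probe had the opposite sign. Ikzf1, which encodes Ikaros, fell without overlap (-1.66 ± 0.33, adjusted p = 0.00138). Tbx21, which encodes T-bet, and Runx3 were not called (0.23 ± 0.48 and -0.65 ± 0.45, adjusted p = 0.764 and 0.328).

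Other genes with large falls were Vipr1, the receptor of vasoactive intestinal peptide, and Pxylp1, a phosphatase of proteoglycan synthesis. Vipr1 read 8.47, 8.90 and 10.38 in intestine Trm, against 11.62, 13.70 and 14.31 in blood Tem (at least 8.2-fold lower, adjusted p = 0.00166). Pxylp1 read 8.10, 8.75 and 9.08 in intestine Trm, against 12.76, 12.90 and 13.20 in blood Tem (at least 5.87-fold lower, adjusted p = 7.0e-08). Neither gene was above background on an intestine Trm array, and both were lower than in whole intestine (log2 differences of -6.74 and -4.20). Dusp7, a phosphatase of MAP kinases, was at least 4.43-fold lower (adjusted p = 2.1e-05). Il18r1, a chain of the interleukin 18 receptor, fell without overlap (-3.78 ± 0.49, adjusted p = 1.3e-05). Klrd1, the CD94 chain of natural killer receptors, fell without overlap (-2.70 ± 0.59, adjusted p = 0.00283).

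Few gut homing genes were called in either direction. Ccr9, the receptor of the gut chemokine Ccl25, read 15.33, 16.19 and 16.38 in intestine Trm, against 12.93, 14.82 and 15.60 in blood Tem, with overlap (1.34 ± 0.43, adjusted p = 0.0322). Its call ended without intestine Trm 1, 3, 4 or 5 or blood Tem 2, 3 or 5 (highest adjusted p 0.0814). Itgb7, which pairs with both Itga4 and Itgae, read 17.17, 17.49 and 17.78 in intestine Trm, against 17.43, 17.68 and 17.81 in blood Tem (-0.19 ± 0.17, adjusted p = 0.475). Itga4, the chain that binds the gut addressin, read 12.69, 14.05 and 14.45 in intestine Trm, against 15.06, 15.80 and 16.33 in blood Tem, and fell without overlap (-1.88 ± 0.34, adjusted p = 5.2e-04). Cd44, a receptor of hyaluronan, rose by 1.52 ± 0.26 without overlap (adjusted p = 3.5e-04), but its other probe had the opposite sign. With the mean of all its probes, Cd44 was not called (adjusted p = 0.251). Cxcr3, a receptor of Cxcl10, and Cxcr6 were not called (-0.25 ± 0.58 and 0.27 ± 0.42, adjusted p = 0.781 and 0.678). In the homing list, 2 of 17 tested members were higher and 4 lower (median difference -0.17), beside 8.11% and 9.63% of all genes. The higher count was 1 without intestine Trm 3, 4 or 5, blood Tem 3 or 5, or intestine Trm 2 and blood Tem 3, and the lower count was 2 without intestine Trm 1 or 6 or blood Tem 2.

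For the counts that follow, the shares of all genes were 8.11% higher and 9.63% lower. Cytosolic ribosomal proteins had 0 of 24 members called (median difference 0.003). Of 28 tested transcription factors of CD8 T cell fate, 6 were higher and 5 lower. Lower members numbered 2 without intestine Trm 6 or blood Tem 1, and 3 without intestine Trm 2 or 4 or blood Tem 6. TGF-beta receptors and SMAD regulators had 1 higher and 1 lower of 11. The higher call ended without intestine Trm 2, 4 or 5, the lower call ended without intestine Trm 1 or 6 or blood Tem 3, 2 were lower without intestine Trm 5, and 0 were called without intestine Trm 2 and blood Tem 3. Innate-like and intraepithelial lymphocyte genes had 1 higher and 1 lower of 10, with 0 higher without intestine Trm 1 or 2 or blood Tem 3 or 4, and 2 without blood Tem 2. Cytokine receptors and SOCS genes had 1 higher and 4 lower of 20, with 0 higher without intestine Trm 4 or 5 or blood Tem 1 or 5, and 2 without intestine Trm 1 or 6 or blood Tem 2. Proliferation genes had 0 higher and 3 lower of 17 (median difference -0.87), with a summed intensity of 125100 to 203400 in intestine Trm, against 178600 to 644200 in blood Tem, where array 2 was the highest. Markers of NK cells, ILC and CD4 T cells had 0 higher and 3 lower of 9, and 1 lower without intestine Trm 2, 4 or 6 or blood Tem 1 or 2.

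**Figure D5:**
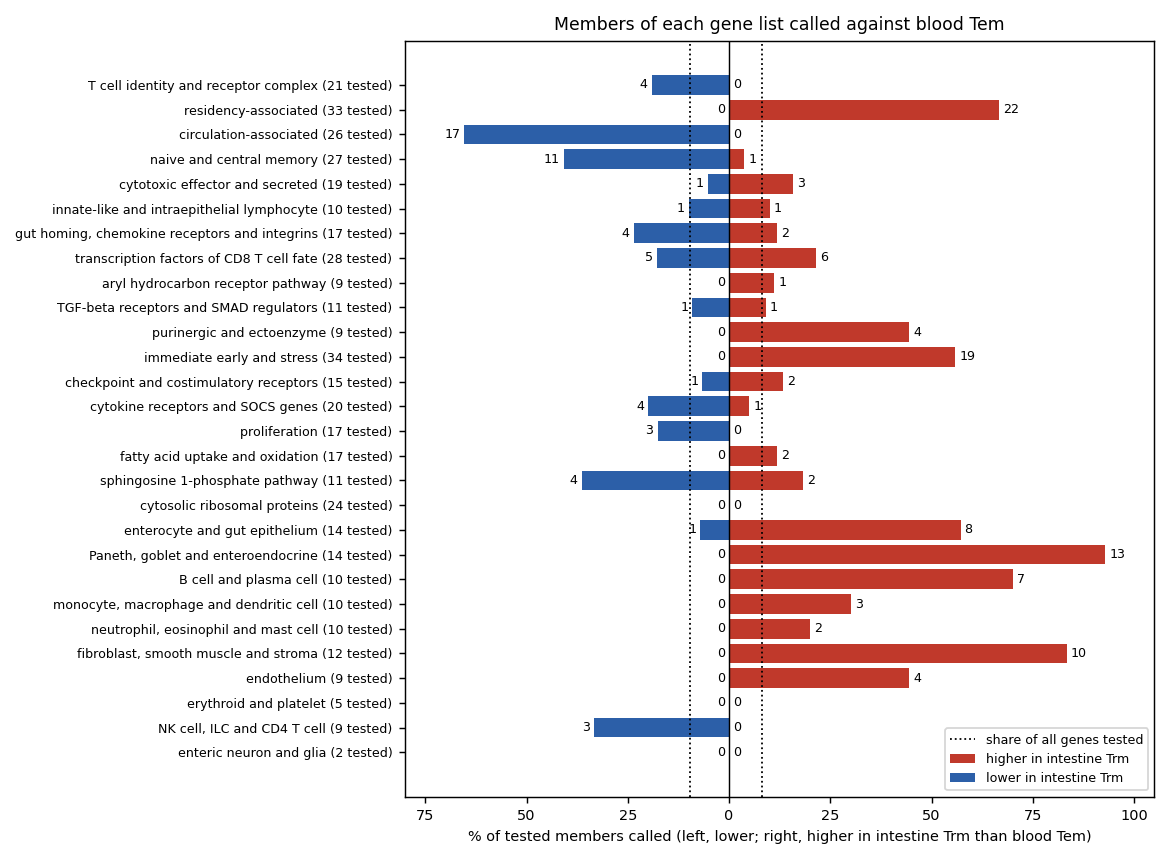
Share of tested members of each gene list called higher (right) or lower (left) in intestine Trm than in blood Tem, with the number of genes beside each bar; dotted lines mark the shares of all genes tested (8.11% higher, 9.63% lower). Residency-associated genes and immediate early and stress genes lie far right, circulation-associated genes far left, and Paneth and stromal markers furthest right.

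Lung and liver Trm, which were also selected on CD8b and CD103, were compared with intestine Trm for the named genes. Liver Trm 3 had 12.2% of probes well above background, against 22.6% to 26.4% on the other liver Trm arrays. The comparisons with liver Trm were not repeated without it. Of all genes tested, 9.5% were called against lung Trm (5.24% higher in intestine Trm and 4.26% lower) and 11.7% against liver Trm (8.87% higher and 2.84% lower). Residency-associated genes were higher in intestine Trm than in lung Trm in 18 of 33 members and than in liver Trm in 14, with 0 lower in either. Ahr differed by 4.04 ± 0.59 from lung Trm (adjusted p = 8.8e-05) and by 3.59 ± 0.62 from liver Trm (adjusted p = 4.3e-04). Bhlhe40 differed by 4.08 ± 0.64 from lung Trm (adjusted p = 2.0e-04) and by 3.66 ± 0.67 from liver Trm (adjusted p = 8.2e-04). These comparisons share the intestine Trm arrays with the comparison against blood.

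Cytotoxic genes had 9 higher and 1 lower of 19 members against lung Trm and 8 higher and 0 lower against liver Trm, beside 3 higher and 1 lower against blood Tem. Gzmb was higher in intestine Trm than in lung Trm by 6.53 ± 0.91 (adjusted p = 5.7e-05) and than in liver Trm by 5.28 ± 0.96 (adjusted p = 7.8e-04). Gzma was higher by 4.01 ± 0.57 than in lung Trm (adjusted p = 7.0e-05) and by 2.62 ± 0.60 than in liver Trm (adjusted p = 0.00546). Cxcr3 was higher by 3.39 ± 0.58 than in lung Trm (adjusted p = 5.1e-04) and by 3.22 ± 0.61 than in liver Trm (adjusted p = 0.00118). Circulation-associated genes had 2 higher and 4 lower of 26 against lung Trm and 0 higher and 6 lower against liver Trm. Klrg1 was higher in intestine Trm than in lung Trm (2.02 ± 0.58, adjusted p = 0.0285), and Cx3cr1 was called against neither tissue. S100a4 was lower in intestine Trm than in lung Trm (-3.34 ± 0.60, adjusted p = 7.2e-04) and liver Trm (-3.33 ± 0.63, adjusted p = 0.00108).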

How the data were processed

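RNA from 12 sorted samples, with an integrity number above 8 and an input of 300 pg, was amplified in 2 rounds and measured on 1-colour Agilent mouse arrays, per the labels' protocols. The authors deposited scanner files that hold an intensity per spot, background-subtracted and detrended by Feature Extraction 11.0.1.1 per the file headers (the submitters' processing notes name 10.7 and Partek), and a table of log2 values. When these intensities were quantile-normalized over all 35 arrays, the result lay within a median absolute difference of 0.000134 of the deposited log2 values on each array, and that table served as an alternative.

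Log2 intensities were scaled by each array's 75th percentile over the probes well above background on all arrays of a fit: 4043 probes for the 23 sorted arrays and 1341 for all 35, on which every comparison with whole intestine was made. Of the 35 arrays, whole PBMC 1 had 7.8% of probes well above background and whole liver 2 had 64.7%. The other arrays had 12.2% to 40.7%. No alternative left out whole PBMC 1 or whole liver 2. Probes printed 10 times (399) were averaged. Accessions named 27508 probes for 20886 genes through a RefSeq table of GRCm38.p6 and left 11921 unnamed. A probe was tested if 3 or more arrays of any 1 group read it well above background, and the probe with the highest mean stood for a gene. limma 3.58.1 in R 4.3.3 was fitted with 1 mean per group, two-sided p-values were given the Benjamini-Hochberg adjustment, and the procedure was tested on simulated data. With no array of the dimmer group above background, a fold is a lower bound: the brighter mean against the higher, per array, of the lowest signal above background and the gene's own. No probe was saturated.

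Members, lists and tests were chosen with earlier results of these data known. Genes were named from these: the 10 largest called differences in each direction (among those with an official symbol and above background on every brighter array), 10 more chosen likewise among genes above and genes at least as bright in whole intestine, up to 4 called members per list and direction, and fixed genes of sorting, homing and function. Results of some genes are not reported here. Further list members are named only to complete a count or as absent. Genes set out by array were chosen after their values were seen. Replicate numbers match the slides in the file headers, and the labels tie no array to an animal. Intensity sums add the linear intensities of a list's tested members. The alternatives are described at the end; normexp (offset 50) used median spot signals.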

Additional observations from a re-analysis of the deposited data

Results flagged for a closer look

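Among the gene levels and list sums given above, 181 groups of 6 arrays were examined for an array lying far from the other 5, by the ratio of its gap to the group's range, and 24 had one, where chance alone gives about 1 in 20. Blood Tem replicate 2 was that array in most cases. It read high, in scaled log2 intensity, for Gzmb (16.42), Cxcr6 (17.01), Cxcr3 (16.40), Ccl4 (16.18), Cd8b1 (16.13), Prf1 (13.68), Fosb (13.35) and Runx3 (12.08). It read low for Klf2 (16.09), Dapl1 (13.33) and Tcf7 (12.81). Its summed intensity was also high for the proliferation list (644200) and for the gut homing, chemokine receptor and integrin list (845600). Without blood Tem 2, 749 genes were higher and 682 lower in intestine Trm, and Klf2 was called.

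Intestine Trm replicate 2 read low for Gzma (15.69), Dennd4a (11.62) and P2rx7 (10.87), and its summed intensity, on the scale of the 23 sorted arrays, was high for stromal (1062000), endothelial (465100) and fatty acid genes (198200). Intestine Trm replicate 6 read low for Litaf (14.49). Blood Tem replicate 3 read low for Fos (8.43) and for the enteric neuron and glia sum (15850). Blood Tem replicate 5 read low for P2rx4 (7.56) and replicate 6 for S1pr5 (8.70).

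Of 77 named genes examined, gut cell genes among them, 23 outside the gut cell lists differed in the same direction from both lung and liver Trm. These were calls by limma at an adjusted p under 0.05, and 17 were higher in intestine Trm. Of all genes, 9.5% were called against lung Trm and 11.7% against liver Trm. Most named genes were chosen by their difference from blood Tem on the same intestine Trm arrays, so their share is not comparable. The log2 differences from lung and from liver Trm were 6.53 and 5.28 for Gzmb, 5.20 and 4.41 for Dennd4a, 4.64 and 4.35 for Cables1, and 4.41 and 3.69 for Foxl2. For Foxl2 and Fkbp1a, other probes differed between intestine Trm and blood Tem by only 0.45 and -0.46, and the probes used here were low on the arrays on which Defa21 was low. They were 4.24 and 3.81 for Adora2a, 4.08 and 3.66 for Bhlhe40, 4.04 and 3.59 for Ahr, and 4.01 and 2.62 for Gzma. They were 3.96 and 3.68 for Fkbp1a, 3.88 and 4.08 for Ccl4, 3.74 and 2.30 for P2rx7, and 3.71 and 3.78 for Litaf. They were 3.39 and 3.22 for Cxcr3, 3.37 and 2.07 for Cd38, 3.02 and 1.75 for Ctla4, 2.64 and 1.78 for Xcl1, and 1.94 and 2.05 for Cd44.

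The other 6 genes were lower in intestine Trm than in both. Their differences from lung and from liver Trm were -3.76 and -3.40 for Dapl1, -3.34 and -3.33 for S100a4, and -2.91 and -1.58 for Il18r1. They were -2.70 and -1.85 for Il6ra, -2.69 and -1.50 for Pxylp1, and -2.30 and -1.68 for Bach2. For Bach2, and for Cd44 among the higher genes, the other probe had the opposite sign against blood Tem. Of 39 named gut cell genes, 19 also differed from both tissues.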

How the results depend on the processing

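Of 3161 values of named genes under the alternatives, 2852 kept their side of the threshold, 296 lost a call and 12 gained one. The sign changed in 8, of which 7 belong to 5 genes called neither way. The other was Ifnar1, the interferon receptor chain, at 0.25 (adjusted p = 0.544) with the mean of all its probes, against -1.18 (adjusted p = 0.0129) with the reported probe. Of 2184 counts and medians of gene lists, 260 moved by over 1.5 times (counts) or by over the SD between slides (medians), and smaller moves are not among them. Lower genes numbered 1368 with scaling over all probes, which moved the median of all genes to -0.30 (-0.15 with quantile normalization), 1261 with array weights and 488 without a filter. With a stricter filter, 419 genes were higher, 161 of them at least as bright in whole intestine. Array weights gave 380 genes above whole intestine. Without intestine Trm 2 and blood Tem 3, an alternative chosen after seeing the data, 455 genes were higher, 189 of them at least as bright in whole intestine. Leaving out each of the 12 arrays in turn gave 533 to 749 higher and 611 to 835 lower genes, 150 to 225 higher genes above whole intestine and 226 to 332 at least as bright in it. Counts of higher and lower genes were 538 and 943 with quantile normalization, 534 and 930 on the deposited log2 values, 552 and 1091 with normexp, 630 and 703 with the slide as a block and 590 and 732 on the 12 arrays alone.

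Deviations from the group means of arrays with the same replicate number correlated between -0.36 and 0.18. The outlying blood Tem 3 was the best match of intestine Trm 3, 4, 5 and 6. This check therefore cannot show whether the replicate numbers pair the samples. With the number as a replicate block, 521 genes were higher (484 shared with the fit without it), 450 lower (434 shared) and 130 of the higher ones above whole intestine. Among the calls that ended were those of Tcf7, Adora2a, Lilrb4a and Cd8b1 (adjusted p = 0.0603, 0.0556, 0.0531 and 0.0513), which does not show weaker effects. The cause of these changes was not tested. With 6 arrays a group and a median shift of 0.70 in intestine Trm over 21086 probes never above background on the 12 arrays, small differences of dim genes cannot be resolved.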
